A study of Macaca mulatta with 12 samples.

Results

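TRBV9 is a variable (V) gene of the T cell receptor beta locus, and the clonotypes described here are those whose best-scoring V gene was TRBV9. A clonotype was a CDR3 nucleotide sequence, the junction where the V, D and J segments meet. TRBV9 headed 7754 of the 218326 clonotype entries of the 12 libraries, 7751 of them in the 8 libraries taken after infusion and 3 in the 4 baseline libraries. After infusion these were 7267 distinct sequences among 205011 of any V gene. The clonotypes were selected on the V gene hit alone. The gene was chosen by its share of counts, with higher observed values than at baseline already known. Its levels against baseline are therefore given as a description without a test. The sample source was blood mononuclear cells of rhesus macaques, and since only receptor transcripts were read, the labelled cell source could not be checked against marker genes.

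The animals named Amazo, Nebula and Rocket were given apoptotic donor leukocytes (ADLs), white blood cells of a donor made to undergo apoptosis. The series text states that the infusions were on days -7 and 1, around an intended transplant on day 0, while a legend of the study places the second on day 0. The study describes these animals as nontransplanted and nondiabetic, and as treated with a transient regimen of rapamycin, the antagonistic CD40 antibody 2C10R4, tocilizumab against the interleukin 6 receptor, and the soluble TNF receptor etanercept. There were 3 libraries at day -5, 3 at day -4, 1 at day 0 (Nebula) and 1 at day +3 (Amazo), and the 4 baseline libraries carry other names. The labels give no strain, age or vendor. By the labels, libraries of 1 name are repeated blood samples of 1 animal, but the content of the Amazo libraries went against this, as described below.

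Each T cell builds its beta chain by joining 1 V, 1 D and 1 J segment. At each joint bases are trimmed from the segments and other bases are added without a template, so that the CDR3 differs between cells and is inherited by all daughters of a cell. Many small clonotypes of a V gene are the mark of a diverse pool, and a single sequence at a high share marks an expanded clone. The TRBJ genes lie in the clusters TRBJ1 and TRBJ2, and TRBD2 lies downstream of the TRBJ1 cluster, so that a direct joint of TRBD2 to a TRBJ1 gene is not formed by ordinary deletion.

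The sequences of 3 clones are shown because these clones held most TRBV9 counts in the libraries where TRBV9 was high. They were among the TRBV9 clonotypes that reached 0.5% of all counts in at least 1 post-infusion library. They are printed 5′ to 3′ with the bases between the V and the J alignment in capitals.
TRBV9-TRBJ2-3 clone: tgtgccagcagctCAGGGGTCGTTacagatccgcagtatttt
TRBV9-TRBJ1-1 clone: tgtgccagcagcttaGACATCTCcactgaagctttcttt
TRBV9-TRBJ1-3 clone: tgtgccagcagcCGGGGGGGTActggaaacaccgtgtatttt

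All 3 were in frame. They were 42, 39 and 42 bases long, in the order printed. The TRBJ2-3 and the TRBJ1-3 clone had a TRBD1 hit, and the TRBJ1-1 clone had no D hit, with 8 bases between V and J. The TRBJ1-1 clone kept the whole V segment as aligned, the TRBJ2-3 clone lacked its last 2 bases, and the TRBJ1-3 clone lacked its last 3. The nearest other TRBV9 clonotype of the same length in the same library differed from them at 4 to 7 bases.

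The labels of the Amazo libraries went against their content. Over TRBV9 clonotypes, the Morisita-Horn index, which runs from 0 for no shared clonotype to 1 for the same clonotypes at the same shares, was 0.9997 between Amazo day -5 and Amazo day +3. It was 0.988 to 0.994 between those libraries and the Rocket libraries, and 0.996 between the Rocket libraries. The library labelled Amazo day -4 had an index of at most 0.00447 with any other library. The Nebula libraries overlapped with each other at 0.167 to 0.220 and with the libraries of other names at no more than 0.00377. The names are therefore used as labels, any contrast within Amazo that includes day -4 sets unlike repertoires side by side, and the libraries of Amazo and Rocket may not be independent.

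TRBV9 took from 2.94% to 13.6% of all counts after infusion, and the libraries fell into a high and a low set. The share was 13.6% in Rocket day -5, 11.9% in Rocket day -4, 10.3% in Amazo day -5 and 10.1% in Amazo day +3. It was 3.53% in Nebula day 0, 3.34% in Nebula day -5, 3.31% in Amazo day -4 and 2.94% in Nebula day -4. No library lay between 3.53% and 10.1%. In the 4 high libraries TRBV9 was the V gene with the most counts, and in the others it ranked 8 to 10 among 58 to 61 V genes. In this order the 95% Wilson intervals of neighbours overlapped for Amazo day -5 and Amazo day +3 and for Nebula day -5 and Amazo day -4, and for no other pair. Total counts were 42695 to 556954 per library, and the intervals cover counting error only, because PCR copies are not independent molecules. The counts come from RNA, so more T cells with TRBV9 and more receptor RNA per cell cannot be told apart.

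As a share of clonotypes TRBV9 varied less. It was the V gene of 3.62% of clonotypes in Amazo day -5, 3.95% in Nebula day -5 and 3.66% in Rocket day -5. At day -4 it was 2.22%, 3.49% and 3.57% in the same order, and it was 4.00% in Nebula day 0 and 3.76% in Amazo day +3. All libraries but Amazo day -4 thus lay between 3.49% and 4.00%, and the high and low sets by counts overlapped.

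The libraries differed in the size of their TRBV9 clones. TRBV9 clonotypes of at least 0.1% of all counts numbered 4 in Rocket day -5, Rocket day -4 and Amazo day -5, 3 in Amazo day +3, 1 in Amazo day -4 and 0 in the Nebula libraries. Of any V gene there were 50, 46, 47, 41 and 34 in the first 5 libraries, in that order. Nebula day -5, day -4 and day 0 had 21, 23 and 19 of any V gene, so large clones in general were also fewer there. The TRBV9 ones made up 87.0%, 82.7%, 79.0%, 78.1% and 53.2% of TRBV9 counts in the 5 libraries that had any. Among clonotypes under 0.1%, TRBV9 had 3.298% to 3.95% of the counts in 7 libraries and 1.99% in Amazo day -4. Without its large clones TRBV9 thus stood at a like level in the Rocket, Nebula and other Amazo libraries.

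**Figure D1:**
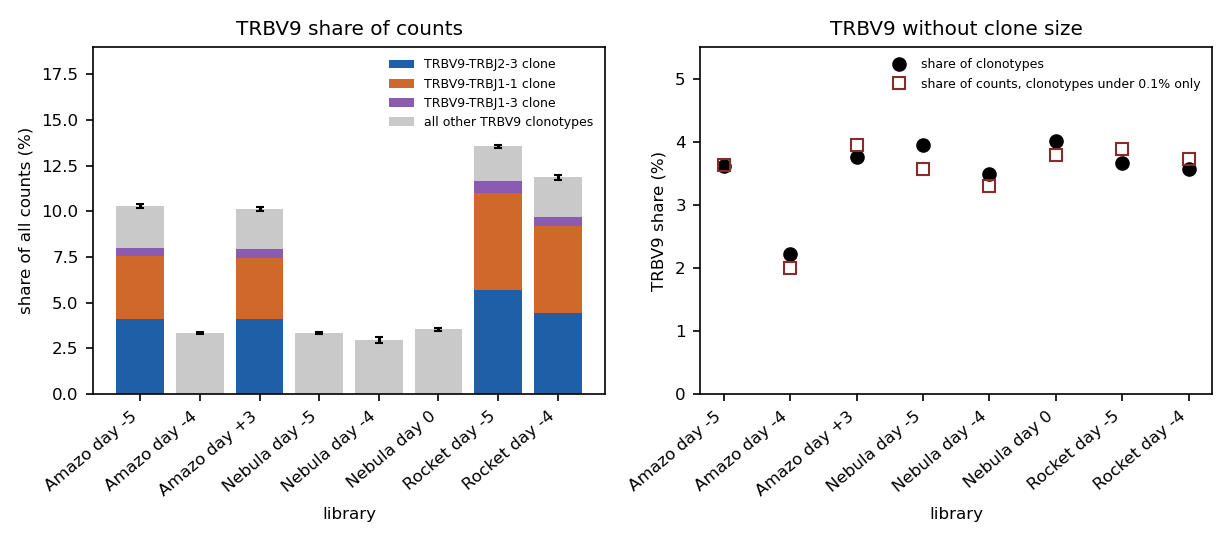
The left panel shows the TRBV9 share of all counts (%) in each post-infusion library as stacked bars, with the 3 printed clones in colour, all other TRBV9 clonotypes in grey and 95% Wilson intervals of the total as error bars. The right panel shows the TRBV9 share of clonotypes and its share of counts among clonotypes under 0.1% (%); the coloured clones fill most of the bars of 10.1% to 13.6%, while the points of 7 libraries lie between 3.298% and 4.00%.

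The number of clonotypes needed to reach 50% of TRBV9 counts was 2 in the Rocket libraries, Amazo day -5 and Amazo day +3, 1 in Amazo day -4, and 332, 176 and 344 in Nebula day -5, day -4 and day 0. At a depth of 1256 TRBV9 counts, the expected number of TRBV9 clonotypes was 125 and 184 in Rocket, 217, 343 and 215 in Amazo (day -5, -4 and +3), and 701, 633 and 728 in Nebula. When only clonotypes under 0.1% were drawn, it was 442 to 728 over the 8 libraries.

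Among TRBV9 clonotypes, the TRBJ2-3 clone reached the highest share of a library's counts. It had 31645 counts (5.68%) in Rocket day -5, 11445 (4.41%) in Rocket day -4, 14330 (4.12%) in Amazo day -5 and 12414 (4.09%) in Amazo day +3, where it ranked 1 to 3 among all clonotypes of the library. Elsewhere it had 2 counts in Amazo day -4, 6 in Nebula day -5, 0 of 42695 in Nebula day -4, which allows a share of up to 0.00703%, and 6 in Nebula day 0. The 4 high libraries did not overlap with the 4 low ones, in which the highest observed share was 0.00232%. The printed clones were picked in the high libraries and are part of the TRBV9 share that defined the sets. The separation is therefore a description only.

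The TRBJ1-1 clone was nearly as large and followed the same libraries. It had 29531 counts (5.30%) in Rocket day -5, 12455 (4.80%) in Rocket day -4, 11994 (3.44%) in Amazo day -5 and 10151 (3.34%) in Amazo day +3. It had 8 counts in Amazo day -4, 7 in Nebula day -5, 0 in Nebula day -4 and 7 in Nebula day 0. Together with the TRBJ2-3 clone it made up 81.0% and 77.6% of TRBV9 counts in Rocket (day -5 and -4), and 73.6% and 73.3% in Amazo (day -5 and +3).

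The TRBJ1-3 clone was smaller and was seen in those 4 libraries only. It had 3754 counts (0.674%), 1265 (0.487%), 1570 (0.451%) and 1484 (0.489%) in Rocket day -5, Rocket day -4, Amazo day -5 and Amazo day +3, and 0 in the other 4.

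**Figure D2:**
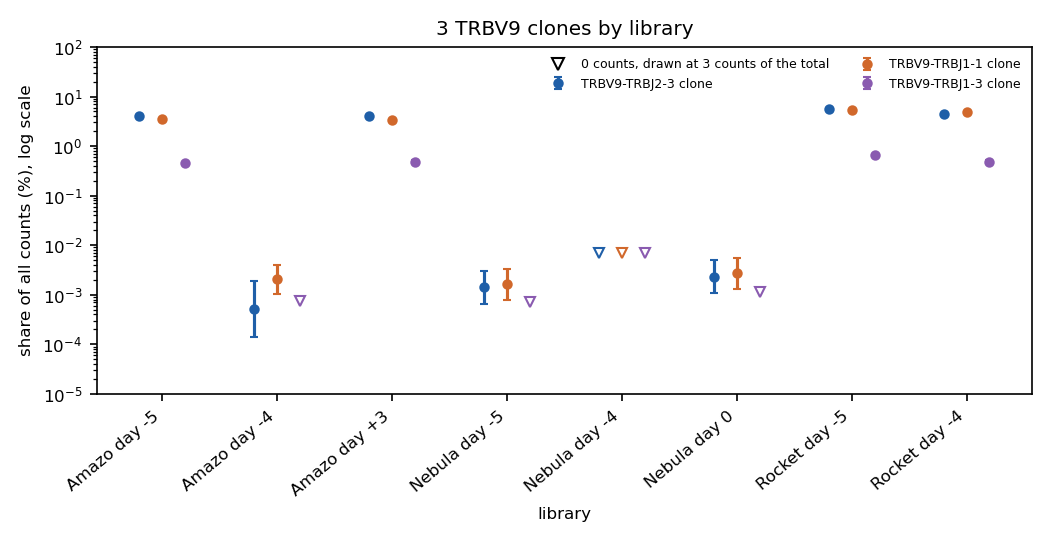
Share of all counts (%, log scale) of the 3 printed TRBV9 clones in the 8 post-infusion libraries, with 95% Wilson intervals; open triangles mark 0 counts and are drawn at the share of 3 counts. All 3 are high in both Rocket libraries, Amazo day -5 and Amazo day +3, at 0.451% to 5.68%, and at most 0.00271% elsewhere.

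Just below the naming threshold, which the TRBJ1-3 clone passed at 0.674%, stood a TRBJ2-3 clonotype of 48 bases with 0.144% in Rocket day -5. The next was an unproductive sequence of 126 bases, at 0.121% in Rocket day -4. It is shown because it opened with the whole 39-base CDR3 of the TRBJ1-1 clone, here in capitals, and went on for 87 bases to an alignment with TRBJ1-3.
long form of the TRBV9-TRBJ1-1 clone: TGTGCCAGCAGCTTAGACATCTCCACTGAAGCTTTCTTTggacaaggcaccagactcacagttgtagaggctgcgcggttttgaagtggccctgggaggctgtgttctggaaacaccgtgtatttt

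The long form had 488 counts in Rocket day -5, 315 in Rocket day -4, 260 in Amazo day -5 and 166 in Amazo day +3, and 0 in the other 4 libraries. That was 1.65%, 2.53%, 2.17% and 1.64% of the counts of the TRBJ1-1 clone itself. It thus occurred in the libraries where the 39-base form was abundant. The listed J gene of such a clonotype differs from that of the shorter form, and no longer clonotype opening with the whole sequence of the TRBJ2-3 or TRBJ1-3 clone was listed.

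Sharing of TRBV9 clonotypes between libraries was sparse apart from these clones. Of the 7267 sequences, 6937 (95.5%) were listed in 1 library only. The same share was not computed for other V genes. TRBV9 had 7751 entries for its 7267 sequences, against 218161 entries for 205011 sequences of any V gene. Sparse sharing is therefore not shown to be particular to TRBV9. Rocket day -5 and Rocket day -4 shared 67 clonotypes, 10.7% of the first and 5.21% of the second library's, and these held 91.5% and 86.5% of TRBV9 counts. Nebula day -5 and Nebula day 0 shared 69, 5.76% and 5.65% of the clonotypes, which held 11.04% and 11.2% of TRBV9 counts. Amazo day -5 and Rocket day -4, of different names, shared 103, 8.10% and 8.003% of the clonotypes.

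3 clonotypes were listed under all 3 names. They were the TRBJ2-3 and TRBJ1-1 clones and the following clonotype of 36 bases, shown with the bases between V and J in capitals.
TRBV9-TRBJ2-4 clonotype: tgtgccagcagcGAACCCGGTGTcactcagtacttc

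The TRBJ2-4 clonotype had 499 counts in Rocket day -5, 170 in Rocket day -4, 186 in Amazo day -5, 199 in Amazo day +3 and 1 in Nebula day -5, and 0 in the other 3 libraries. Under the name Nebula it thus rested on 1 count. The TRBJ2-3 and TRBJ1-1 clones rested there on 6 and 7 counts in each of Nebula day -5 and Nebula day 0. As Amazo and Rocket may not be independent, a listing under all 3 names need not mean 3 separate animals.

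The comparison of day -5 with day -4 asks how the repertoire moved between 2 and 3 days after the first infusion. TRBV9 held 9.06% ± 5.21 of counts at day -5 and 6.04% ± 5.04 at day -4 (SD, n = 3), with the lower value at day -4 in all 3 names. The Amazo pair sets unlike repertoires side by side, and Amazo and Rocket may not be independent. The 3 names may therefore not be 3 separate pairs, here and in the tests over names below. The log2 fold change was -0.75 ± 0.46 (SE) and did not pass (edgeR quasi-likelihood test with the name as block, adjusted p = 0.627, unadjusted p = 0.167). No V gene passed in this test, 0 of 57 or 0%, with 0 at an unadjusted p below 0.05 and 5 by DESeq2, none of which passed after adjustment. Without the libraries labelled Amazo the TRBV9 change was -0.27 (adjusted p = 0.835), and in that fit 4 of 56 V genes passed.

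The joints of TRBV9 to each of the 13 J genes were tested among all V-J combinations. The log2 fold change ran from -1.78 ± 1.93 (SE) for TRBJ2-3 to 1.21 ± 0.88 for TRBJ1-5. 11 of the 13 values were below 0, with a median of -0.35 against 0.00029 over all combinations. The edgeR quasi-likelihood test called 0 of the 13, as it called 0 of all 701 combinations (0%), and the lowest adjusted p of the 13 was 0.924. At an unadjusted p below 0.05 there were 0 of 13 in edgeR and 0 of 13 in DESeq2, against 11 and 34 of all 701.

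Of clonotypes, TRBV9 made up 3.74% ± 0.179 at day -5 against 3.10% ± 0.755 a day later (SD, n = 3). Day -4 minus day -5 was -1.39 percentage points in Amazo, -0.457 in Nebula and -0.0862 in Rocket. The exact sign-flip permutation test gave p = 0.25, the smallest it can give with 3 names. The largest clone held 27.7% ± 23.1 of TRBV9 counts at day -5 and 31.7% ± 27.0 at day -4 (SD, n = 3; exact sign-flip permutation, p = 0.75). In Amazo the values were 40.1% and 53.2%, for different clones. In Nebula they were 1.02% and 1.43%, and in Rocket 41.9% and 40.4%. CDR3s of TRBV9 averaged 44.1 ± 0.190 bases at day -5 and 44.0 ± 0.302 at day -4 (SD, n = 3; exact sign-flip permutation, p = 0.5). The length at day -4 minus that at day -5 was 0.289 bases in Amazo, -0.328 in Nebula and -0.297 in Rocket, and without Amazo the mean went from -0.112 to -0.313 (exact sign-flip permutation p = 0.5, the smallest possible with 2 names). With all 3 names, the spread of the 3 differences exceeded the mean difference for each of these measures.

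Single clonotypes of at least 0.1% were compared between libraries of 1 name by Fisher's exact test on counts, which compares those libraries and not the days. In Rocket, 0 of 5 TRBV9 clonotypes changed by at least 2-fold between day -5 and day -4, against 1 of 52 clonotypes of any V gene (1.92%). The TRBJ2-3 clone fell from 5.68% to 4.41%, a ratio of 0.776 (95% exact interval 0.759 to 0.793), and the TRBJ1-1 clone from 5.30% to 4.80%, a ratio of 0.905 (0.886 to 0.924). The TRBJ1-3 clone and the 48-base TRBJ2-3 clonotype had ratios of 0.723 and 0.584, and the long form 1.38. On the adjusted p alone all 5 passed, as did 43 of the 52 clonotypes of any V gene (82.7%), and the highest of the 5 was 1.28e-05 in Fisher's exact test.

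In Amazo, all 5 TRBV9 clonotypes were called between day -5 and day -4, as were 81 of 81 clonotypes of any V gene (100%). Of the 5, 4 were lower and 1 was higher at day -4, against 47 lower and 34 higher of any V gene. The TRBJ2-3 clone went from 14330 counts to 2, a share 8077-fold lower (95% exact interval 2236 to 66704), and the TRBJ1-1 clone from 11994 counts to 8, 1690.2-fold lower (857.5 to 3916). The TRBJ1-3 clone went from 1570 counts to 0, at least 589.97-fold lower with 3 counts as the floor per library, and the 48-base TRBJ2-3 clonotype was at least 131-fold lower. As these libraries shared almost no repertoire, no direction over time can be drawn from them.

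Between Amazo day -5 and Amazo day +3, after the second infusion, 0 of 4 TRBV9 clonotypes were called, against 5 of 49 of any V gene (10.2%). The ratio of shares was 0.994 for the TRBJ2-3 clone (95% exact interval 0.970 to 1.02), 0.971 for the TRBJ1-1 clone (0.945 to 0.997) and 1.08 for the TRBJ1-3 clone (1.01 to 1.16). In Nebula no TRBV9 clonotype reached 0.1%, so none was tested. Of any V gene, 2 of 25 (8%) were called there from day -5 to day -4 and 2 of 23 (8.7%) from day -5 to day 0. The largest TRBV9 clonotype of a Nebula library was at 0.0298% to 0.0422% of all counts.

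TRBV9 clonotypes had slightly longer CDR3s than those of other V genes in the same library. Over productive clonotypes, each counted once, the mean was 44.0 ± 0.201 bases for TRBV9 and 43.4 ± 0.151 for the other V genes (SD, n = 8 libraries). The difference was 0.446 to 0.948 bases and positive in 8 of 8 libraries. Averaged per name it was 0.625 in Amazo, 0.553 in Nebula and 0.624 in Rocket, a mean of 0.600 (exact sign-flip permutation p = 0.25, the smallest possible with 3 names). Among the 36 V genes with at least 100 productive clonotypes, TRBV9 ranked 6 to 13 by mean length.

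The lengths also spread less than those of the other V genes as a pool. The SD of length within a library was 4.78 bases for TRBV9 and 5.29 for the pool (means of 8 libraries), lower in 8 of 8. The SD of a pool also includes any differences in mean length between its V genes. It was not computed for other single V genes, so a smaller spread is not shown to be particular to TRBV9. CDR3s of under 39 bases were 6.76% of TRBV9 clonotypes and 11.4% of the others, and those of 45 bases were 27.2% and 23.8%. The shares over 51 bases were 4.36% and 4.64%, with TRBV9 higher in 4 of 8 libraries, so that the 2 sets differed mainly on the short side. These shares were likewise not computed for other single V genes.

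Weighted by counts, the mean length of TRBV9 was 38.0 to 43.9 bases over the libraries and was below that of the other V genes in 5 of 8. Among counts of clonotypes under 0.1% it was 44.0 ± 0.209 bases (SD, n = 8) and above the others in 8 of 8.

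**Figure D3:**
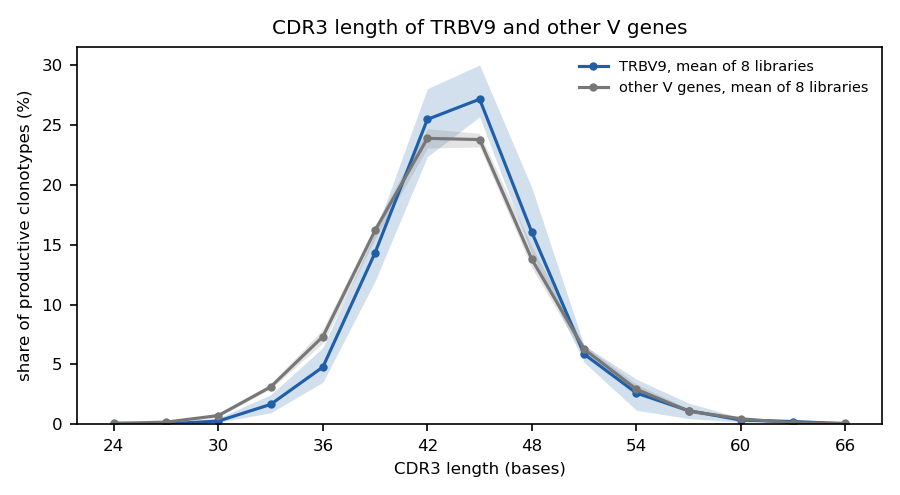
CDR3 length in bases against the share of productive clonotypes (%) for TRBV9 and for all other V genes; lines are means of the 8 post-infusion libraries and bands run from the lowest to the highest library. The TRBV9 line lies below the other at 39 bases and less and above it at 42 to 48 bases, with 27.2% against 23.8% at 45 bases.

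The parts of the CDR3 were compared next. The J part was 17.5 bases for TRBV9 and 17.4 for the others, and TRBV9 was higher in 4 of 8 libraries. The stretch between the V and the J alignment was 13.8 ± 0.383 and 13.1 ± 0.155 bases (SD, n = 8), longer for TRBV9 in 8 of 8 libraries. By name the difference was 1.11 bases in Rocket, 0.999 in Amazo and 0.206 in Nebula (mean 0.772, exact sign-flip permutation p = 0.25).

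Inside the V part, the libraries differed in the bases at the end of the segment. Of productive TRBV9 clonotypes, 83.2% to 88.0% opened with the same 12 bases. Bases 13 to 15 of the CDR3, which complete the V segment in the reference, are shown in capitals as the reference has them and for a second ending that was frequent in some libraries.
reference end: tgtgccagcagcTTA
second end: tgtgccagcagcGAA

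Every TRBV9 clonotype whose alignment reached the last base of the segment carried the reference end. That follows largely from the selection, since such an alignment has to match the reference there. Among clonotypes with the shared 12 bases, the reference end was carried by 26.9% in each Nebula library and by 15.1%, 17.5% and 17.2% in Amazo (day -5, -4 and +3) and 21.8% and 17.8% in Rocket (day -5 and -4). The second end was carried by 19.96%, 15.2% and 23.5% in Amazo and by 20.2% and 22.1% in Rocket. In Nebula day -5, day -4 and day 0 it was carried by 0.431%, 0.949% and 0.616%, which were 4, 5 and 6 clonotypes. The highest upper 95% Wilson limit in Nebula was 2.20% and the lowest lower limit elsewhere was 12.2%, so that the sets did not overlap. The second end was noticed in these same data, with 3 names and libraries that may not be independent, and no test was made.

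The second end was found in many clonotypes. It was spread over 71 to 227 clonotypes in each Amazo and Rocket library, of which the largest held at most 0.0896% of all counts. Amazo day -4, which shared almost no TRBV9 clonotype with the other libraries, had 71 of them. TRBJ2 genes followed it in 63.5% to 68.3% of cases and the reference end in 61.1% to 68.3% in the same 5 libraries. After either end, base 16 was a G in most clonotypes, in 58.3% to 76.1% after the second and in 60.7% to 69.5% after the reference end. The third most frequent ending was at 4.41% to 5.66% there.

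Among other V genes with the same first 12 bases, the second end was carried by 0.643% to 0.785% of clonotypes in every library, so the Nebula share of TRBV9 was at that level. In the Amazo and Rocket libraries TRBV9 supplied 51.8% to 75.3% of all clonotypes of any V gene with these 15 bases, and in Nebula 5.56% to 10.4%. The D segment, bases added at the joint and an end of the V segment other than that in the reference could not be told apart at these 3 positions.

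**Figure D4:**
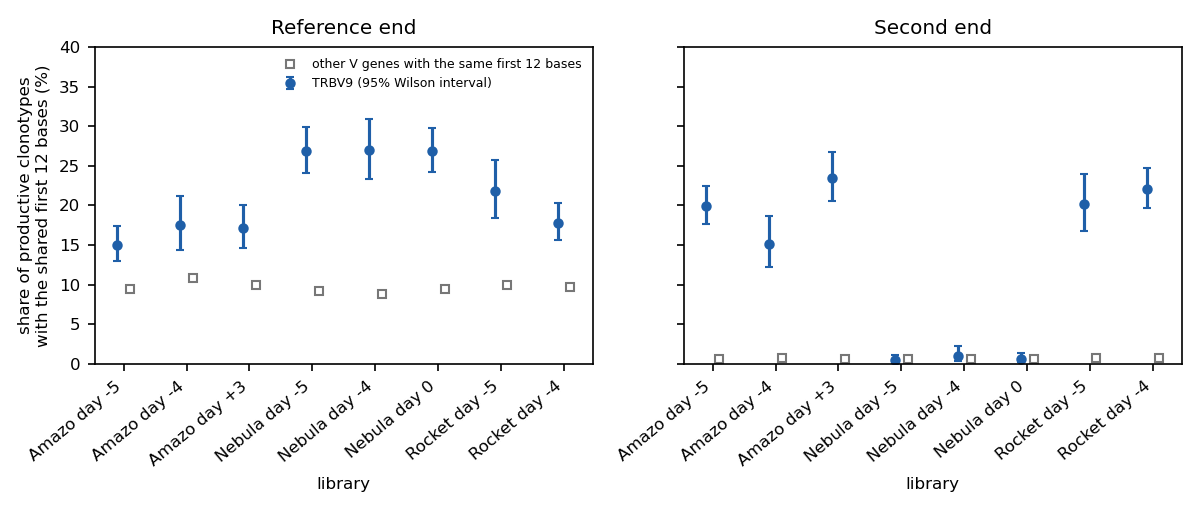
Share (%) of productive clonotypes with the shared first 12 bases that carried the reference end (left) or the second end (right) in each post-infusion library, for TRBV9 with 95% Wilson intervals and for other V genes. The second end lies at 15.2% to 23.5% in the Amazo and Rocket libraries and below 1% in the Nebula libraries and in other V genes.

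The V alignment of clonotypes with the second end stopped short of the last base of the segment. They had 15.2 to 15.9 bases between V and J in the Amazo and Rocket libraries, against 11.4 to 12.1 with the reference end. Much of that difference is built into the endings, because the reference end matches the V segment at bases 13 to 15 and the second end does not. It therefore does not show a longer junction. The mean CDR3 length in these libraries was 44.45 to 45.19 bases with the second end and 43.98 to 45.03 with the reference end, so the ranges overlapped. With clonotypes of the second end left out, the difference from other V genes in bases between V and J was 0.576 as a mean of 3 names. That in CDR3 length was 0.498. Both were computed after the data had been seen.

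Of the J genes, TRBJ2-7 was joined most often, in 12.3% of productive TRBV9 clonotypes (mean of 8 libraries), then TRBJ2-3 in 11.7% and TRBJ2-1 in 9.64%. TRBJ2-3 exceeded its share in other V genes, 9.81%, in 7 of 8 libraries, and TRBJ2-1 exceeded its share there, 11.2%, in 1 of 8. The TRBJ2-3 share of TRBV9 clonotypes was 13.3%, 7.52% and 15.2% in Amazo (day -5, -4 and +3), 9.69%, 9.90% and 9.72% in Nebula (day -5, -4 and 0) and 15.7% and 12.5% in Rocket (day -5 and -4). It was thus highest in the 4 libraries that held the large TRBJ2-3 clone, with each clonotype counted once. In other V genes the TRBJ2-3 share was also highest in those libraries, at 10.4% to 11.1% against 8.47% to 9.17% in the other 4. The other 10 J genes differed from their share in other V genes by at most 0.734 percentage points in the mean, from 3.24% for TRBJ1-6 to 9.06% for TRBJ2-4.

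By counts the J genes followed the clones. TRBJ2-3 held 40.2% to 45.2% of TRBV9 counts in the Rocket libraries, Amazo day -5 and Amazo day +3 and 3.65% to 9.67% in the others. The whole TRBJ2 cluster was joined by 64.6% of TRBV9 clonotypes in Amazo, 61.2% in Nebula and 64.9% in Rocket. The difference from other V genes was 0.588, 3.396 and 0.246 percentage points in that order (mean 1.41, exact sign-flip permutation p = 0.25), and it was negative in Amazo day -5, Amazo day +3 and Rocket day -5.

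**Figure D5:**
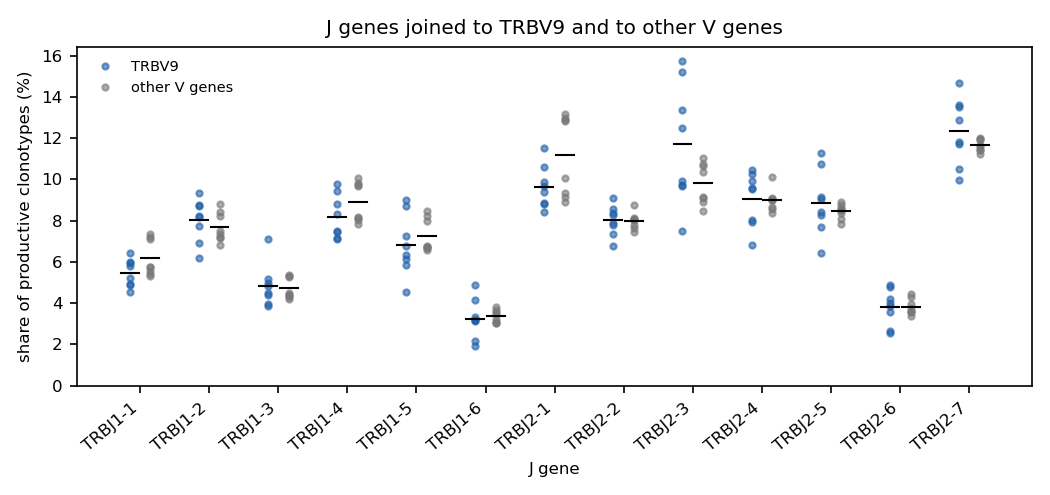
Share of productive clonotypes (%) joined to each J gene, for TRBV9 and for all other V genes; points are the 8 post-infusion libraries and black lines their means. TRBJ2-3 has a mean of 11.7% with TRBV9 and 9.81% with other V genes, and TRBJ2-1 has 9.64% and 11.2%.

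D hits followed the order of the segments. With TRBJ1 genes, TRBV9 clonotypes had TRBD1 in 66.4% ± 2.20, TRBD2 in 10.0% ± 2.19 and no D hit in 23.6% ± 1.82 (SD, n = 8). With TRBJ2 genes they had TRBD1 in 42.2% ± 2.85, TRBD2 in 37.1% ± 2.98 and no D hit in 20.7% ± 1.64. TRBD2 hits beside a TRBJ1 gene were as frequent in other V genes, at 9.12%, and such short matches need not stem from a TRBD2 segment.

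TRBV9 clonotypes lacked a D hit less often than others. The share was 21.1%, 22.4% and 21.7% in Amazo, Nebula and Rocket against 25.0%, 26.6% and 24.1% in other V genes. The difference was -3.90, -4.17 and -2.41 percentage points (mean -3.49, exact sign-flip permutation p = 0.25) and was below 0 in 8 of 8 libraries. The stretch between the segments was also longer in 8 of 8 libraries, but the names were not in the same order. Nebula had the smallest difference in that stretch, 0.206 bases, and the largest in D hits. Rocket had the largest in the stretch, 1.11 bases, and the smallest in D hits. With clonotypes of the second end left out, after the data had been seen, the mean difference in D hits was -4.74 percentage points. The part of one in the other was not tested.

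Few TRBV9 proteins were encoded by several CDR3 sequences. The share of CDR3 amino acid sequences with at least 2 nucleotide sequences in the library was 0.832% (Nebula day -4) to 3.81% (Rocket day -5), against 0.663% to 2.98% in other V genes, and it was higher for TRBV9 in 6 of 8 libraries. At most 4 nucleotide sequences encoded 1 protein sequence. CDR3s of over 75 bases were 1 to 10 clonotypes a library.

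Productive sequences made up 90.9% to 95.7% of TRBV9 clonotypes and 88.8% to 94.6% of the others. The V hit was shared with another V gene for 2 TRBV9 clonotypes in Nebula day -4 and for 0 in the other libraries, against 8.65% to 14.2% of clonotypes of other V genes. A doubtful split between near-identical V genes thus touched few TRBV9 counts.

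The V genes whose share of counts ran most like that of TRBV9 over the 8 libraries, of 57 compared, were TRBV19 (Spearman's rho 0.952), TRBV28 (0.905) and TRBV7-4 (0.857). These are descriptions over libraries that share clones and totals. TRBV19 ran from 1.11% to 2.38% of counts, TRBV28 from 0.675% to 5.31% and TRBV7-4 from 1.90% to 3.91%. Each had clonotypes of at least 0.1% in the 4 libraries where TRBV9 was high, together 3.69% to 4.66% of all counts for TRBV28, and none in the Nebula libraries. In Amazo day -4 such clonotypes held 0.302% of all counts for TRBV28 and 0.107% for TRBV7-4, and TRBV19 had none.

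At baseline TRBV9 had 0 of 73, 1 of 63, 2 of 74 and 0 of 70 counts. A count of 0 allows a share of up to 4.11% in the first and 4.29% in the last of these libraries, more than the share of TRBV9 in Amazo day -4 and the Nebula libraries. The 3 baseline clonotypes were joined to TRBJ2-2, TRBJ2-6 and TRBJ1-1, and none was listed after infusion under any V gene. None of the 3 printed clones was seen at baseline, which at this depth says nothing of shares under 4.05%, the share of 3 counts in the third library.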

How the data were processed

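Per the labels, cDNA from polyadenylated RNA was made by template switching, the VDJ region was amplified and sequencing was done on a MiSeq. Reads were trimmed (Trimmomatic) and clones assembled (MiXCR) by the authors. The deposited count of each clone is a whole number and not normalized, and the deposited fraction equals that count over the file's total. The study describes collapsing by molecular barcode and a clone threshold of 0.5%, but 99.85% or more of clones of each post-infusion file were below it and no file had a barcode column, so counts were used as deposited.

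The members and lists were chosen with earlier results of these data known. V, D and J genes were first hits, and productive means in frame without a stop. Day -5 and day -4 were compared by edgeR 4.0.16 (R 4.3.3) quasi-likelihood tests on counts summed per V gene or V-J combination (TMM, at least 10 counts in 3 libraries, Benjamini-Hochberg over all features, name as block). Clonotypes of at least 0.1% in either library were compared by two-sided Fisher's exact tests, adjusted over all V genes and called at adjusted p below 0.05 and at least 2-fold. Single values were compared by exact two-sided sign-flip permutation over 3 names (smallest p 0.25). Alternatives included DESeq2 1.42.0. Tests were checked on simulated data. Named were clonotypes of at least 0.5% in any post-infusion library, those under all 3 names, all J and D genes, and the 3 V genes most like TRBV9 by Spearman's rho. Endings of the V segment, the long form and the D hits by J cluster were looked at after values had been seen. Samples with the same name were treated as pairs because the labels give them the name of 1 animal. For Amazo the content went against this, so the block and the tests over 3 names include a doubtful pair. Deviations of V gene shares from the group means correlated at 0.840 within Nebula, 0.875 within Rocket and -0.158 within Amazo. Across names the value was 0.697 for Amazo day -5 with Rocket day -4 and 0.437 for Nebula day -5 with Amazo day -4. The remaining pairs of different names ran from -0.909 to -0.513. 1 named clonotype is not reported here. Chromosome positions were not used here. Python 3.11.15, pandas 2.3.3 and scipy 1.17.1 were used for the other computations.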

Additional observations from a re-analysis of the deposited data

How the results depend on the processing

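Of 104 alternative values of 14 results, 92 kept their direction and their side of the threshold or their count. Much of this was fixed in advance and is no measure of stability. A sign-flip test over 3 names cannot give a p below 0.25, so its alternatives over names could not pass. The Nebula comparisons at the main threshold had 0 TRBV9 clonotypes to test, and leaving out 1-base neighbours removed 0. The 8 libraries were also used as units, which treats libraries of 1 name, and those of Amazo and Rocket, as independent. The differences of TRBV9 from other V genes then passed for CDR3 length (0.598 bases), clonotypes without a D hit (-3.63 percentage points) and bases between V and J (0.730). Each had an exact sign-flip p = 0.00781, the smallest possible. Weighting by counts turned 4 differences, to -1.34 bases for CDR3 length, -1.48 bases between V and J, -11.6 points for the TRBJ2 cluster and 12.9 points for clonotypes without a D hit. The TRBV9 clonotypes called in Amazo day -5 to day -4, calls that were largely fixed in advance, were 3 at a threshold of 0.5% or 1% and 5 otherwise. Without a minimum fold, 5 were called in Rocket and 3 in Amazo day -5 to day +3, where 0 had been, against 43 of 52 and 41 of 49 of any V gene.

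Leaving out each name gave log2 changes of TRBV9 from -0.99 to -0.27 and differences in the largest clone's share from -0.523 to 6.78 percentage points, the negative one without Amazo. Without the replicate block the log2 change was -0.68 (edgeR adjusted p = 0.981) and the exact permutation p for the TRBV9 share of clonotypes was 0.1, the smallest for 3 against 3. The block changed no call. Leaving out clonotypes 1 base from a clonotype of 100 times the count removed 0 TRBV9 clonotypes. Depth limited Nebula day -4, with 1256 TRBV9 counts, and the baseline libraries.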
